A study of Mus musculus with 10 samples.

Results

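The chaperonin TRiC, also called CCT, was followed in the transcriptome of interscapular brown adipose tissue (iBAT) from mice with and without RetSat in their brown adipocytes. The 8 genes that encode its subunits in somatic cells, Tcp1, Cct2, Cct3, Cct4, Cct5, Cct6a, Cct7 and Cct8, were chosen by name, and each had 1 entry among the 55414 genes of the counts. All 8 passed the filter on low counts and were among the 17690 genes tested. RNAseq libraries came from 5 Cre- mice and 5 Cre+ mice, 1 library per numbered sample, and the question for the complex was whether its subunits moved together when RetSat was deleted.

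Both genotypes were C57BL/6J mice, 12 to 14 weeks of age and kept on normal chow. The sample labels give no sex, and the study describes the mice of its iBAT expression panels as male. Both carried RetSat flox/flox, so that the controls had the floxed alleles too and differed from Cre+ mice by the absence of Ucp1-Cre. The Ucp1 promoter drives Cre in brown adipocytes without an inducing agent, and the tissue also holds endothelial cells, fibroblasts and immune cells, in which recombination was not measured here. RNA was taken from whole tissue, and in such bulk samples fewer cells of a type and less RNA per cell cannot be told apart. Neither the labels nor the methods say whether the replicate numbers stand for separate litters or days. The identifiers of Cre+ replicates 1, 4 and 5 carry an added letter, no Cre- identifier does, and the meaning of the letter is not given.

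TRiC is a barrel of stacked rings in the cytosol, in which each ring holds the different but related subunits in a fixed order, and ATP hydrolysis closes a lid over a bound protein so that it can fold. Actin and tubulin depend on it, as do many proteins built from WD40 repeats, prefoldin hands substrates over to it, and phosducin-like proteins assist or limit its work. The subunits are needed together in one particle, and heat shock factor 1 (HSF1), the factor that switches on cytosolic chaperone genes under stress, is known to act on their genes.

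The targeted gene separated the genotypes as labelled. Levels are given as CPM, the count of a gene scaled to a common library size by TMM. Retsat, which encodes the oxidoreductase that saturates retinol, lay at 151 to 255 CPM in Cre- libraries and at 18.0 to 39.0 CPM in Cre+ libraries, and it fell by 2.95 on the log2 scale (SE 0.24, edgeR's quasi-likelihood test, adjusted p = 0.00402). Libraries held 91903095 to 132499312 counts in Cre- mice and 96991071 to 110293494 in Cre+ mice. Skeletal muscle transcripts were high in Cre- replicate 2 and Cre+ replicate 4, with a mean log2(CPM + 1) over the muscle markers of 5.03 and 4.26 against 0.13 to 1.30 in the other 8 libraries. Brown adipocyte markers summed to 7631 to 9668 CPM in Cre- and 7909 to 10633 CPM in Cre+ libraries, and no gene of any marker list was at 0 in all libraries.

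The upstream sequences of the subunit genes are shown first because HSF1 reads inverted repeats of the letters GAA. Of the 8 genes, 7 had an entry in the RefSeq promoter table (GRCm38.p6), with 9 transcription starts in all, and Cct4 had none. The 250 bases before each start were searched on both strands for GAANNTTC and TTCNNGAA, which are 2 of these repeats in either order, and each of which is its own reverse complement. A match was present at 2 of the 9 starts. One of the 2 Cct2 starts carried GAANNTTC at 42 bases before it, in a window that lies in the first intron of the longest annotated Cct2 transcript in GENCODE M21 (chr10:117063376-117063625, minus strand). The window before the other, more upstream Cct2 start (chr10:117063853-117064102, minus strand) had neither form. Both are printed 5′ to 3′, with the repeat in capitals.
Cct2, downstream start: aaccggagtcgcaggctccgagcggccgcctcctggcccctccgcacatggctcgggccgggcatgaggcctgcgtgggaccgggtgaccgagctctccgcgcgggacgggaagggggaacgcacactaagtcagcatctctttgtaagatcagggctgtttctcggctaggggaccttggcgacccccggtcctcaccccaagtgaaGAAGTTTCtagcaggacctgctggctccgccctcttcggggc
Cct2, upstream start: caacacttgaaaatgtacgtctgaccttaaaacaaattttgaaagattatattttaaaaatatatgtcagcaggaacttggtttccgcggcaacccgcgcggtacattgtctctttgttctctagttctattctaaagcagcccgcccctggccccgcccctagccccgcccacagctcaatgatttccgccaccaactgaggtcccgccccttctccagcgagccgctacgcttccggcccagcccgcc

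Cct5 carried TTCNNGAA at 34 bases before one of its 2 starts, and the 30 bases around it (chr15:31601862-31601891, minus strand) are given with the match in capitals.
Cct5, 30 bases around the match: acagcggccgaTTCCAGAAgctactctgcg
Cct3, Cct6a, Cct7, Cct8 and Tcp1 had neither form in their windows. Among all 32851 promoters of the table, 12.8% held one form or the other, 6.69% GAANNTTC and 7.17% TTCNNGAA. Of 12 heat shock genes known to respond to HSF1 and not part of the complex, 9 had promoters in the table, and 5 of those 9 carried a match at 6 of 13 starts. A match is a run of letters and does not show binding, and a window without one says nothing about the factor.

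CCAAT, the letters bound by nuclear factor Y, stood before Cct3, Cct6a, Cct7 and Tcp1, at 4 of the 9 starts, beside 33.8% of all promoters. All 250 bases of the Tcp1 window lie in exons of Mrpl18, and all 250 of the Cct6a window in exons of Cct6a and Psph. Cct7 had 3 copies, at 187, 125 and 95 bases before its start, and Cct3 had 2, at 74 and 33. The parts of these windows that lie outside annotated exons are shown, Cct7 at chr6:85451284-85451504 and Cct3 at chr3:88297000-88297115, both on the plus strand and both with CCAAT in capitals, where it reads ATTGG because each copy is on the opposite strand.
Cct7: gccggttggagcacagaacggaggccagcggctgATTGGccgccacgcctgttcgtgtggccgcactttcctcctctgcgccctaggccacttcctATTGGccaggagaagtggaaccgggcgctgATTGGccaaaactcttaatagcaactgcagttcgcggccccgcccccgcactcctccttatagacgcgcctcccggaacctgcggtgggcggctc
Cct3: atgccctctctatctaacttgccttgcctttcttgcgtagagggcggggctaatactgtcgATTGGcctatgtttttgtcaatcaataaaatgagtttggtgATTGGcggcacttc
No window held TATAAA, present in 12.4% of all promoters, or CACGTG, present in 6.02%.

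All 8 subunits had a lower mean in Cre+ than in Cre- mice, a change of -7.23% for Tcp1 to -19.8% for Cct4. Log2 fold changes ran from -0.32 for Cct4 to -0.11 for Tcp1 with a median of -0.22, beside a median of 0.00 over all genes tested, of which 49.7% were negative and the middle 80% lay between -0.32 and 0.32. None of the 8 was called by edgeR at an adjusted p under 0.05, where 0.130% of all genes were called lower. At an unadjusted p under 0.05, 7 of the 8 were lower and none higher, against 5.95% of all genes lower and 6.40% higher. DESeq2 called 4 of the 8, Cct3, Cct4, Cct5 and Cct6a, against 1.22% of all genes lower, and 2 were called by limma voom, in which libraries were weighted by quality, Cct4 and Cct6a, against 0.520% of all genes lower. The study names Cct3 among protein folding genes it selected as lower on these same samples, so the direction of Cct3 is not independent evidence, and which other subunits were in that selection was not used here. The call for the complex thus differed between the 3 tools, while the direction of the 8 fold changes was the same in each of them.

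**Figure D1:**
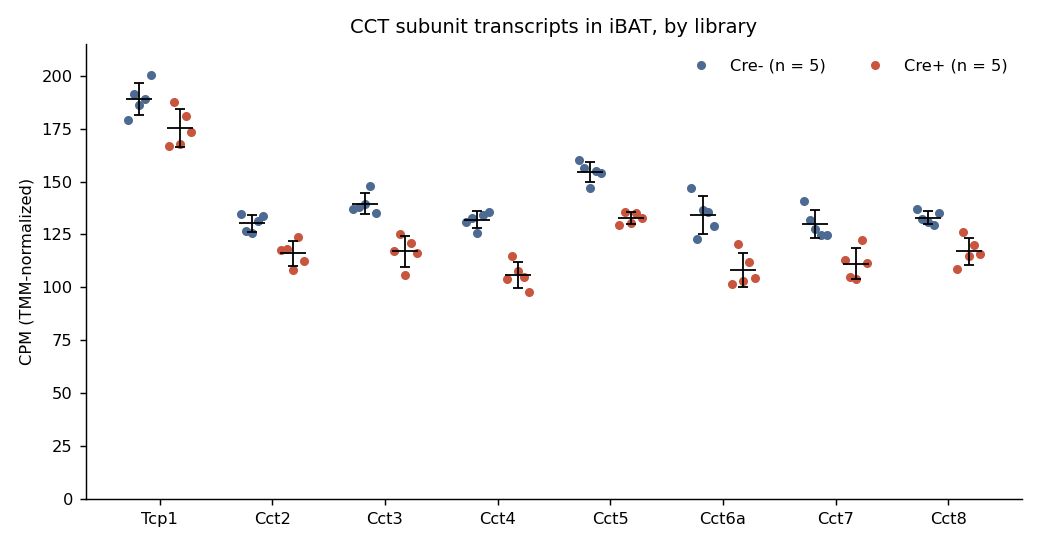
Transcript level of each CCT subunit in CPM (TMM-normalized, y axis) in the 5 Cre- (blue) and 5 Cre+ (red) libraries. Points are libraries, bars the mean and SD. In 7 subunits every Cre+ point is below every Cre- point, and in Tcp1 the points overlap.

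Cct4, which encodes the delta subunit, had the smallest p of the 8 (gene ENSMUSG00000007739.11, GRCm39 chromosome 11, 22940519 to 22953780, plus strand). The 5 Cre- libraries held 131, 133, 126, 134 and 136 CPM in the order of their labels, and the 5 Cre+ libraries 104, 115, 108, 105 and 97.8 CPM. The highest Cre+ library, replicate 2, stayed more than 10 CPM below the lowest Cre- library, replicate 3. The mean went from 132 ± 3.96 (SD, n = 5) to 106 ± 6.16 CPM (n = 5), a log2 fold change of -0.32 (SE 0.06, edgeR's quasi-likelihood test, adjusted p = 0.0598; DESeq2 adjusted p = 0.000987; limma voom adjusted p = 0.0271).

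Cct6a encodes the zeta subunit and is the form used outside the testis (ENSMUSG00000029447.14, chromosome 5, 129864062 to 129875212, plus strand). Its level was 147, 123, 136, 135 and 129 CPM in Cre- libraries and 102, 121, 103, 112 and 104 CPM in Cre+ libraries. The groups did not overlap, but Cre- replicate 2 and Cre+ replicate 2 came within a few CPM of each other. The mean went from 134 ± 8.94 to 108 ± 7.93 CPM (n = 5 each), a log2 fold change of -0.31 (SE 0.07, edgeR adjusted p = 0.0979; DESeq2 0.0158; limma voom 0.0455).

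Cct3 encodes the gamma subunit (ENSMUSG00000001416.14, chromosome 3, 88204423 to 88229074, plus strand). Cre- libraries held 137, 138, 139, 148 and 135 CPM and Cre+ libraries 117, 125, 106, 121 and 116 CPM. Each Cre+ value lay below each Cre- value. Its log2 fold change was -0.25 (SE 0.06, edgeR adjusted p = 0.121; DESeq2 0.0267; limma voom 0.0544), between means of 140 ± 4.97 and 117 ± 7.29 CPM (n = 5 each).

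Tcp1, the gene of the alpha subunit and the first of the family to be described, had the largest p of the 8 (ENSMUSG00000068039.14, chromosome 17, 13134588 to 13143954, plus strand). Cre- libraries held 179, 191, 186, 189 and 200.1 CPM, and Cre+ libraries 167, 188, 168, 181 and 173 CPM. Of the 5 Cre+ libraries, 3 were below the lowest Cre- library, and replicates 2 and 4 lay within the range of the Cre- group. The means were 189 ± 7.71 and 175 ± 8.90 CPM (n = 5 each), a log2 fold change of -0.11 (SE 0.06, edgeR adjusted p = 0.490; DESeq2 0.517; limma voom 0.304).

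The other 4 subunits, beta, epsilon, eta and theta, lay between these. Cct5 ranged from 147 to 160.3 CPM in Cre- and from 129 to 135 CPM in Cre+ libraries, with the smallest spread of any Cre+ group (SD 2.81), a log2 fold change of -0.22 (SE 0.05) and an adjusted p of 0.121 by edgeR and 0.00927 by DESeq2. Cct7 ranged from 125 to 141 CPM in Cre- and from 104 to 122 CPM in Cre+ libraries, with a log2 fold change of -0.22 (SE 0.07, edgeR adjusted p = 0.192). Cct8 had -0.18 (SE 0.06, edgeR adjusted p = 0.231) and Cct2 -0.17 (SE 0.06, edgeR adjusted p = 0.266). In all 4 the highest Cre+ library stayed below the lowest Cre- library.

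With Cct3, Cct4 and Cct6a, that made 7 of 8 subunits in which every Cre+ library was below every Cre- library, against 1.47% of all genes tested. This count depended on the scaling. When libraries were scaled by their total count in place of TMM, the median over all genes shifted to 0.07 and that of the subunits to -0.15, and 3 of the 8, Cct3, Cct4 and Cct5, remained without overlap, against 0.667% of all genes. All 8 log2 fold changes were then still negative, from -0.25 for Cct4 to -0.03 for Tcp1, and 5 of the 8 had an unadjusted p under 0.05. The share of all genes at that threshold was not computed for this scaling, so the 5 have no background beside them. By edgeR, 0 of the 8 were called with it, and 28 of 17690 genes. Relative to the median of all genes, the subunits lay 0.22 lower with either scaling. A change of scaling moves all genes by nearly the same amount, so this agreement was fixed in advance and tests nothing.

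With TMM scaling, the 8 genes were displaced together within libraries. Measured as log2 ratio to the Cre- mean and averaged over the subunits, the 5 Cre- libraries lay between -0.03 and 0.03 and the 5 Cre+ libraries at -0.26, -0.15, -0.29, -0.17 and -0.25. In each of the 5 Cre+ libraries all 8 subunits were below their Cre- mean with this scaling. For the 7 subunits without overlap this follows from the lack of overlap. Under total count scaling the groups lay closer, with Tcp1 at 184 ± 7.22 CPM in Cre- and 180 ± 8.38 CPM in Cre+ libraries (n = 5 each). The shift was smallest in Cre+ replicate 2, which held the highest value of its genotype for 6 of the 8 subunits, and in the muscle-rich Cre+ replicate 4, which held it for the other 2, and it was largest in Cre+ replicate 3. Without the muscle-rich library of each genotype the median log2 fold change was -0.24. Without the 3 Cre+ libraries whose identifiers carry a letter, which left 2, the median was also -0.24. In that setting 6 subunits had an unadjusted p under 0.05, a threshold for which the share of all genes was not computed there. None of the subunits was called by edgeR, against 43 of 18715 genes. Cct7 then had the lowest log2 fold change (-0.32, edgeR adjusted p = 0.173) and Cct4 had -0.25 (adjusted p = 0.259). Summed over the 8, subunit transcripts made up 1118 to 1166 CPM in Cre- and 942 to 1033 CPM in Cre+ libraries, with means of 1142 ± 18.1 and 983 ± 40.5 CPM (n = 5 each).

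**Figure D2:**
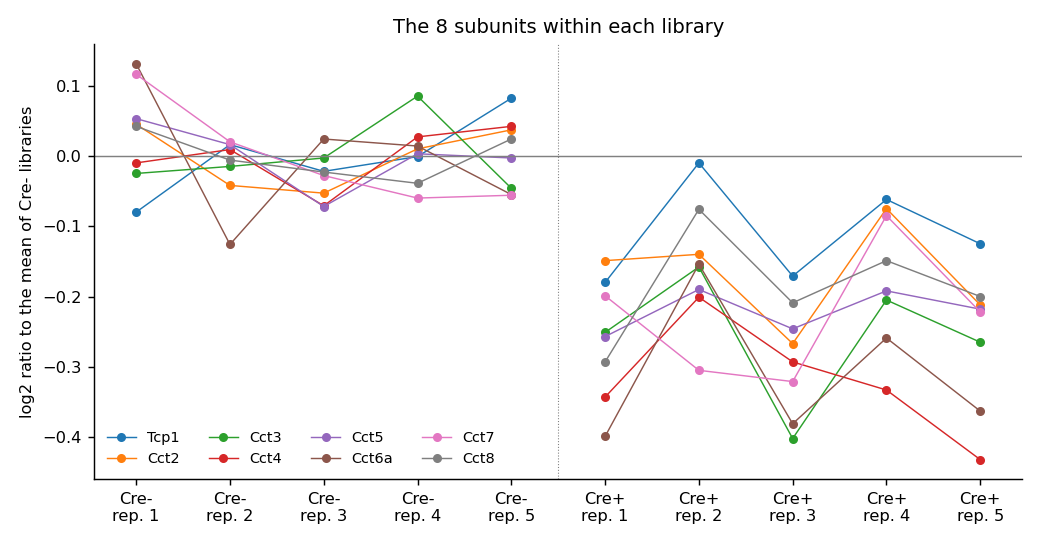
Log2 ratio of each subunit to the mean of its Cre- libraries (y axis) in the 10 libraries (x axis, numbered as in the labels). Lines join the points of one subunit and imply no order of libraries. Values are TMM-normalized, and with this scaling all 8 points are below 0 in the Cre+ libraries, with averages from -0.29 to -0.15.

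The subunits did not shift by equal amounts in their means, and this was examined with the ratio of 2 subunits inside a library, which no scaling of libraries can alter. The test was chosen after the values had been seen. Over the 28 pairs, exact two-sided permutation tests of 5 against 5 libraries (252 splits, smallest possible p 0.00794) gave 9 pairs with an unadjusted p under 0.05 and none after Benjamini-Hochberg adjustment over the 28 pairs, where the lowest value was 0.089. Tcp1 was in 5 of the 9 and Cct4 in 4, with the pair of both counted in each, and the pair without either was Cct2 and Cct6a. The log2 ratio of Tcp1 to Cct4 was 0.519 ± 0.049 in Cre- and 0.73 ± 0.076 in Cre+ libraries, higher by 0.21 (n = 5 each, exact permutation p = 0.00794, adjusted p = 0.089). Tcp1 to Cct6a was higher by 0.20 (exact permutation p = 0.00794, adjusted p = 0.089). As a share of the 8-subunit total, Tcp1 took 16.6 ± 0.769% in Cre- and 17.8 ± 0.283% in Cre+ libraries, and Cct4 11.5 ± 0.291% and 10.8 ± 0.549%. No pair passed the adjusted threshold, which does not show that the subunits shifted equally.

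The spread inside each genotype gave a second view of whether the subunits vary together. After removal of the genotype means, Pearson's r between 2 subunits over the 10 libraries had a median of 0.38 over the 28 pairs and was positive in 26, beside a median of 0.00 over all 156459205 pairs of genes tested, 49.9% of them positive. It ran from -0.39 for Cct4 and Cct7 to 0.71 for Cct6a and Cct8. An exact permutation test within genotypes gave an unadjusted p under 0.05 for 2 pairs, Cct5 with Cct8 (r = 0.65, p = 0.0143, Spearman's rho = 0.77, p = 0.0197) and Cct6a with Cct8 (r = 0.71, p = 0.0282, rho = 0.64, p = 0.0797), and for none after adjustment over the 28 pairs, both at 0.395. Median rho was 0.30, with 1 pair at an unadjusted exact permutation p under 0.05 and none after adjustment. When the 2 libraries farthest from the median of the first subunit were left out, the median r was 0.36 with 21 pairs positive, and for the 2 pairs named r was 0.66 and 0.63.

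**Figure D3:**
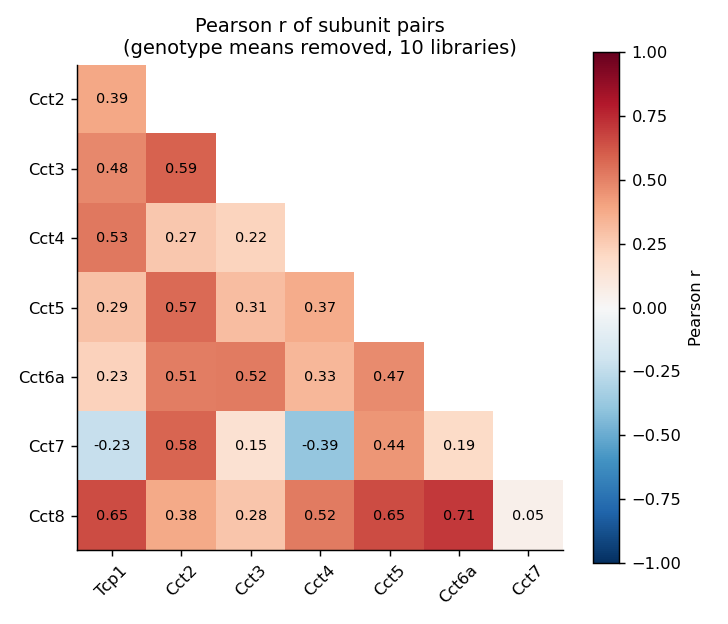
Pearson's r between the log2 CPM of 2 subunits over 10 libraries after removal of the genotype means, as colour (scale from -1 to 1) and number. Of 28 pairs 26 are positive, and both negative ones involve Cct7.

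Cct2 followed the mean of the other 7 subunits most closely (r = 0.74), then Cct8 (0.71), Cct5 (0.68), Cct6a (0.64) and Cct3 (0.56), and Tcp1 (0.46), Cct4 (0.34) and Cct7 (0.13) least. For comparison, pairs within other lists had a median r of 0.17 for the 6 prefoldin subunits (15 pairs), -0.17 for the CCT cofactors (15 pairs), 0.44 for actin and tubulin genes (91 pairs) and 0.69 for the HSF1-inducible genes (66 pairs). These pairs share libraries and genes and carry no test. Outside the complex, the 5 genes most like the subunit mean by this measure, of 8201 genes with a mean log2 CPM of at least 3, were Mettl6 (r = 0.95), Msi2 (0.93), Tmem65 (0.93), Iffo2 (0.90) and Dnajc27 (0.90). Their log2 fold changes were -0.20, 0.00, -0.25, -0.56 and 0.15, none called by edgeR, so the 5 did not share a direction between genotypes.

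Because the subunits form one particle, their levels were also set beside each other per length. The counts cover all annotated exons, with untranslated parts included, also where they are divided by coding length. Coding lengths ran only from 1605 bases for Cct2 to 1668 for Tcp1, so that scale stays close to plain CPM. Per kilobase of coding sequence, which the GENCODE M21 annotation gives for all but Cct6a, Cre- libraries held 113 ± 4.62 CPM of Tcp1, 95.2 ± 2.98 of Cct5, 85.4 ± 3.04 of Cct3, 81.6 ± 2.45 of Cct4, 81.2 ± 2.52 of Cct2, 80.8 ± 1.87 of Cct8 and 79.6 ± 4.12 of Cct7 (n = 5 each). Tcp1 was above Cct5, and Cct5 above Cct3, in 5 of 5 libraries, Cct3 above Cct4 in 4 of 5, and the neighbours from Cct4 to Cct7 changed places between libraries, each first in 3 of 5. In Cre+ libraries Tcp1 (105 ± 5.33) and Cct5 (81.7 ± 1.73) kept the first and the second place in 5 of 5 libraries, and Cct4 had the lowest mean (65.4 ± 3.81). The highest subunit exceeded the lowest by 1.45 ± 0.0878 times in Cre- and 1.66 ± 0.0845 times in Cre+ libraries. Per kilobase of all annotated exons the order was another one, with Cct5 highest (55.9 ± 1.75 in Cre-) and Cct7 lowest (19.2 ± 0.991) and a ratio of 2.92 ± 0.114, since the exon models run from 2557 bases for Cct2 to 6778 for Cct7.

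**Figure D4:**
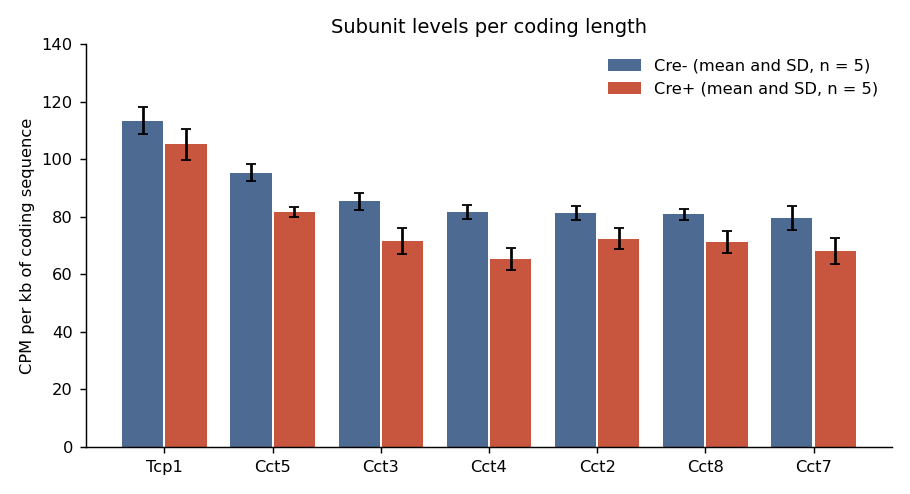
CPM per kilobase of coding sequence (y axis, from 0) of 7 subunits in Cre- (blue) and Cre+ (red) libraries, bars and error bars as mean and SD, n = 5 each. On this scale Tcp1 is highest in both genotypes, and Cct4 is lowest in Cre+ libraries. The counts cover all exons, and per kilobase of all exons Cct5 is highest and Cct7 lowest in both genotypes.

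Neighbouring genes limit some of these counts, because reads were assigned without regard to strand. Exons of Tcp1 overlap those of Mrpl18 (141 bases) and Acat3 (571 bases), Cct6a those of Psph (452 bases), Cct7 those of Pradc1 (214 bases) and Cct8 those of Usp16 (192 bases), all on the opposite strand. Each neighbour had a lower mean than its subunit, from 4.70 CPM for Acat3 to 82.7 CPM for Mrpl18, and log2 fold changes of 0.10 for Mrpl18, -0.17 for Acat3, 0.18 for Psph, 0.00 for Pradc1 and 0.04 for Usp16, with unadjusted p from 0.136 to 0.992 (edgeR). Their part in the subunit values was not tested. Cct2, Cct3, Cct4 and Cct5 had no exon overlap. Pseudogene transcripts similar to Cct3 at 90% identity or more over at least 300 bases, Cct3-ps1 and Gm11516, were at 0.0197 CPM at most.

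The partners that bring proteins to the chaperonin had medians near 0, and whether they differed from the subunits was not tested. Of the 6 prefoldin subunits, 3 had negative and 3 positive fold changes, with a median of 0.02 and none called, and the smallest p belonged to Pfdn6, which was higher (36.3 ± 2.07 against 41.1 ± 4.18 CPM, log2 fold change 0.18, SE 0.08, edgeR adjusted p = 0.364). Of 7 cofactors, phosducin-like proteins and members of the URI complex that helps assemble large machines, 6 were tested, with a median of 0.04 and none at an unadjusted p under 0.05, and Pdcl3, a phosducin-like protein, had 32.8 ± 1.84 and 35.0 ± 2.85 CPM. The 5 tubulin folding cofactors, which take over tubulin after release, had a median of 0.06 and none at an unadjusted p under 0.05.

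The relatives of the complex were lower in their median and gave no call. Cct6b, the copy of the zeta subunit used in testis, was at 0.968 ± 0.132 CPM in Cre- and 0.863 ± 0.0815 CPM in Cre+ libraries, far under Cct6a, with a log2 fold change of -0.16 (SE 0.16). With the 3 chaperonin-like genes of Bardet-Biedl syndrome, Mkks, Bbs10 and Bbs12, the 4 relatives had a median of -0.18 and none at an unadjusted p under 0.05. Hspd1 and Hspe1, the chaperonin and its lid in mitochondria, differed by -0.15 (SE 0.08) and by -0.12 (SE 0.12) on the log2 scale, and neither had an unadjusted p under 0.05.

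Substrates of the complex lay on both sides of 0. Of 14 actin and tubulin genes, the median was -0.03, and at an unadjusted p under 0.05 there was 1 lower and 1 higher gene, with none called by edgeR. Actb, cytoplasmic actin, was at 542 ± 58.3 and 433 ± 77.5 CPM (log2 fold change -0.32, SE 0.11, adjusted p = 0.273), and Tubb4b, a beta tubulin, at 101 ± 7.65 and 116 ± 7.62 CPM (0.20, SE 0.07, adjusted p = 0.275, edgeR). Of 17 WD40 and other substrates the median was 0.05, with 4 genes at an unadjusted p under 0.05, the lower Stat3 (-0.25) and Ppp2r2a (-0.19), and the higher Mlst8 (0.23) and Gnb5 (0.22), and none called.

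The HSF1-inducible heat shock genes outside the complex had a median of -1.08, beside -0.22 for the subunits. All 12 were negative, 10 had an unadjusted p under 0.05, and 4 fell at an adjusted p under 0.05 by edgeR and 9 by DESeq2. Ahsa1, an activator of Hsp90, fell by 0.57 on the log2 scale (SE 0.07, adjusted p = 0.00854), Hsp90aa1, the inducible Hsp90, by 1.09 (SE 0.15, adjusted p = 0.0135), Stip1, which links Hsp70 to Hsp90, by 0.77 (SE 0.11, adjusted p = 0.0138) and Hsp90ab1 by 0.60 (SE 0.11, adjusted p = 0.0435, edgeR in each case). The call of Hsp90ab1 was lost on leaving out any 1 of 8 libraries, all but Cre+ replicates 3 and 4 (edgeR adjusted p from 0.0592 to 0.157), and under total count scaling (0.0546). Those of Hsp90aa1 and Stip1 were lost without Cre+ replicate 1 (0.0552 each), and that of Stip1 also without Cre+ replicate 5 (0.0592). Without the 3 libraries with a letter Hsp90aa1 (0.0589) and Hsp90ab1 (0.0536) were lost, and Ahsa1 stayed called in all 20 other settings. The study selected genes of this kind as lower on these samples, so their direction in these libraries is no independent evidence either. By qPCR, the study also reports lower heat shock and co-chaperone transcripts in iBAT and in brown adipocytes depleted of RetSat. Those measurements were not used here. Hsf1 itself had 25.0 ± 1.81 and 25.9 ± 1.95 CPM (log2 fold change 0.05, SE 0.08), and of the 4 heat shock factors tested Hsf2 was the 1 with an unadjusted p under 0.05 (-0.32, SE 0.10, edgeR adjusted p = 0.244).

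The heat shock genes were also followed library by library. Averaged over the 12 heat shock genes, the log2 ratio to the Cre- mean was -1.50, -1.66, -2.27, -0.49 and -1.68 in Cre+ replicates 1 to 5, where the subunits had -0.26, -0.15, -0.29, -0.17 and -0.25. Cre+ replicate 3 was lowest in both. Cre+ replicate 4 stood apart for the heat shock genes, and for the subunits it was next to replicate 2.

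**Figure D5:**
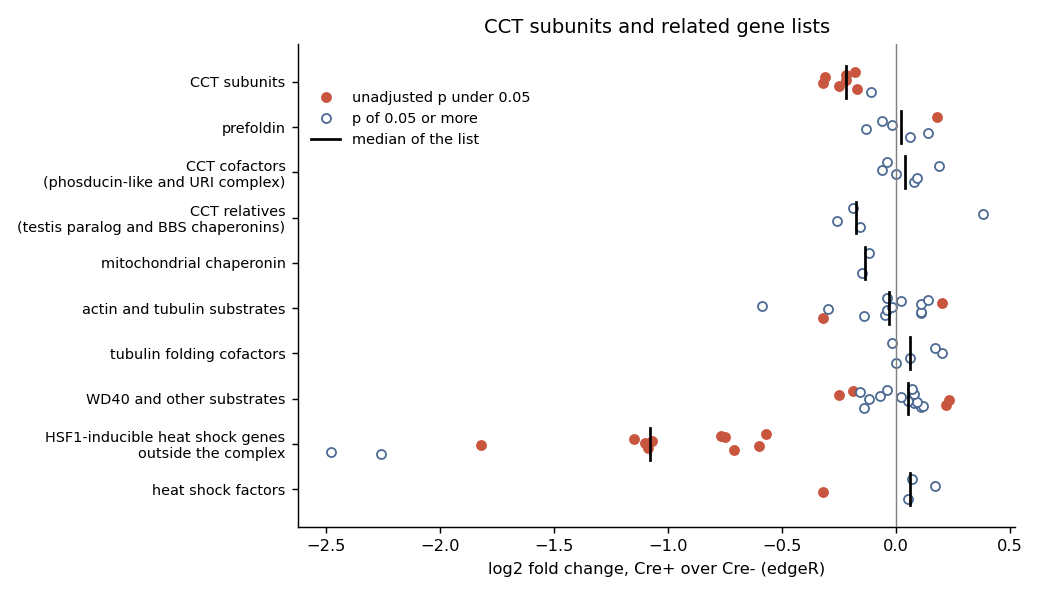
Log2 fold change of Cre+ over Cre- (x axis, edgeR) for the genes of each list (rows), filled where the unadjusted p was under 0.05, with the list median as a bar. The 8 subunits sit between -0.32 and -0.11, prefoldin, cofactors and substrates around 0, and the HSF1-inducible genes between -2.48 and -0.57.

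Some markers of other cells and states had an unadjusted p under 0.05 as well. Proliferation genes had a median of -0.60, with 3 of 6 lower at an unadjusted p under 0.05 against 5.95% of all genes, and summed to 4.31 to 10.7 CPM in Cre- and 3.26 to 5.39 CPM in Cre+ libraries. Cre- replicate 4 stood apart, with a mean log2 ratio to the Cre- mean of 0.90 against -0.34 to -0.04 in the other Cre- and -0.68 to -0.15 in the Cre+ libraries. Without it, a choice made after seeing the data, the median was -0.23 with 1 of 6 lower at an unadjusted p under 0.05, against 5.65% of all genes. The subunits had a median of -0.22 with 7 of 8 lower at this threshold, with and without that library. This does not test whether proliferation had a part in their values. Of 8 lymphocyte genes 3 were higher at an unadjusted p under 0.05, against 6.40% of all genes, with sums of 2.52 to 3.08 and 2.93 to 4.41 CPM. At an unadjusted p under 0.05, 2 of 9 immediate early genes, which respond to handling of tissue, were lower and 1 was higher. Over all genes, 5.95% were lower and 6.40% higher at this threshold. The 9 genes summed to 221 to 808 CPM in Cre- and 130.2 to 541 CPM in Cre+ libraries. Their part in the subunit values was not tested.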

How the data were processed

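RNA of iBAT was sequenced in 5 Cre- and 5 Cre+ mice. According to the processing notes and the file headers, the authors trimmed reads with Trimmomatic and aligned them to GRCm39 with STAR (versions not given in the sources used here). The deposited counts are raw read counts per gene from featureCounts 2.0.1, per the file headers on GENCODE M28 exons, with mates counted singly, strand ignored, each read given to its largest overlap, and reads with several alignments left out.

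Genes were matched to symbols by gene ID (52081 of 55414). Counts were filtered (filterByExpr, minimum count 10, minimum total 15), TMM-normalized and tested with edgeR 4.0.16 (quasi-likelihood, robust, R 4.3.3) over 17690 genes with Benjamini-Hochberg adjustment and a threshold of 0.05. SE is the size of the log2 fold change divided by the square root of F. DESeq2 1.42.0 and limma 3.58.1 (voom with sample quality weights) were alternatives, beside other scalings, filters, a replicate block and left-out libraries. The fit was tested on simulated data. Log2 CPM used a prior count of 2. Similar transcripts were found with BLAST+ 2.17.0 against GENCODE M21. P-values measure the spread between these samples, which may in part be technical. No 2 libraries of the same genotype agreed within sampling noise, and pairs across genotypes were not compared. At the depth of 91903095 to 132499312 counts per library, the subunits had at least 10508 counts each, a counting error of at most 0.976%, beside a replicate SD of 2.12 to 7.32%.

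The members and lists were chosen with earlier results of these data known. Named were the 8 subunits, Retsat, up to 4 genes of each list by edgeR p, the 5 most alike genes, genes with overlapping exons, and Cct6b. Protein sequences were not used here.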

Additional observations from a re-analysis of the deposited data

How the results depend on the processing

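All 8 subunits kept a negative log2 fold change under each of the 20 other settings, with called counts of 0 to 4. By DESeq2 4 subunits were called, Cct3 (-0.25, adjusted p = 0.0267), Cct4 (-0.32, 0.000987), Cct5 (-0.22, 0.00927) and Cct6a (-0.31, 0.0158), and by limma voom 2, Cct4 (-0.33, 0.0271) and Cct6a (-0.32, 0.0455). With no filter on low counts 1 was called, Cct4 (-0.32, edgeR adjusted p = 0.0429), and without the library of each genotype with the most muscle transcripts 1, Cct6a (-0.35, 0.0474). Over all genes, 92 of 32380 and 289 of 17821 were called in these settings, against 29 of 17690 in the main fit. Leaving out 1 library gave 0 or 1 call, Cct4 without Cre+ replicate 2 (-0.35, 0.0460) or Cre+ replicate 4 (-0.32, 0.0287). Over all genes, 31 of 18039 were called without Cre+ replicate 2 and 331 of 17997 without Cre+ replicate 4. With 1 library left out, the log2 fold change of Cct4 ran from -0.35 to -0.29. Across all settings the adjusted p of Cct4 ran from 0.000987 (DESeq2) to 0.259 (without the 3 Cre+ libraries with a lettered identifier). The cause was not tested.

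With total count scaling the subunit median moved to -0.15 and the subunits without overlap to 3. With TMM scaling, leaving out any 1 library left them at 7. Removing a library cannot create an overlap, so this count could not fall and the outcome tests nothing. With coding in place of exon length, the ratio of highest to lowest subunit was 1.45. Without each library in turn the median correlation ran from 0.32 to 0.47, the Tcp1 to Cct4 difference from 0.19 to 0.23, and 0 pairs passed, an alternative chosen after seeing the data.

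The HSF1-inducible genes called were 9 by DESeq2, 11 by limma voom, 11 without the muscle-rich libraries, and 1 to 11 without 1 library, with 1 without Cre+ replicate 1, 2 without replicate 5 and 11 without replicate 4. Over all genes, 393 were called by DESeq2, 148 by limma voom and 289 without the muscle-rich libraries. The calls over all genes were 9 without Cre+ replicate 1, 10 without replicate 5 and 331 without replicate 4. Actin and tubulin genes called ran from 0 to 1, with Actb called without Cre+ replicate 4.

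The replicate numbers showed no clear pairing of the samples (correlations of 0.18, -0.11, 0.15, -0.20 and 0.22). These values cannot decide whether the numbers stand for litters or days. With the replicate block 0 subunits were called, at a median of -0.22 and an adjusted p of 0.149 for Cct4, and 23 genes in place of 29 over all genes.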
